A study of Mus musculus with 4 samples.

Results

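Endothelial cells line the vessels and chambers of the heart, and 10 genes that mark their identity were examined in bulk heart RNA: Pecam1, Cdh5, Vwf, Cldn5, Aqp1, Kdr, Flt1, Tek, Egfl7 and Emcn. The members were all probe sets of the array whose only annotated gene symbol is one of these names, which gave 17 probe sets of 45037 tested and 10 genes of 18193. Each gene was measured by 1 to 4 probe sets, and the probe set with the highest mean over all arrays represented it in counts of genes. The 4 single-colour Affymetrix arrays held total heart RNA of C57B6 mice aged 3.6 months, sampled at baseline without treatment. The wild-type group had 2 arrays. The other group, also with 2 arrays, carried GSK-3α S21A, a knock-in in which alanine replaces serine 21 of glycogen synthase kinase 3α. The comparison asks which heart transcripts differ when this kinase cannot be restrained by phosphorylation at that serine. Nothing in the labels ties the arrays to separate animals, and the spread behind each p-value is that of the 4 arrays, possibly a technical one.

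The genes divide by role. Cell-cell contacts of the endothelium rest on VE-cadherin, encoded by Cdh5, on the tight junction protein claudin-5, encoded by Cldn5, and on PECAM-1, encoded by Pecam1. Vascular endothelial growth factors act through the receptor kinases encoded by Kdr and Flt1, whereas angiopoietins act through TIE2, encoded by Tek. Vwf encodes the clotting protein von Willebrand factor and Egfl7 a secreted matrix protein, while Aqp1 encodes a water channel and Emcn the surface sialomucin endomucin.

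No endothelial identity gene passed the test between genotypes. Of the 17 probe sets, 0 had an adjusted p under 0.05 in the limma fit over the whole table, with adjusted p-values from 0.459 to 0.997, whereas 0.00666% of all probe sets passed. By their representative probe sets 8 of the 10 genes had a higher mean in the knock-in hearts and 2 a lower one, and the median log2 difference, knock-in minus wild-type, was 0.19. The share of genes with a difference above 0 was 46.9% over all genes, with a median of −0.01. Among the 4883 genes at least as bright as the dimmest member it was 69.5%, with a median of 0.06, so 8 of 10 is read against that share. In bulk heart RNA, a different number of endothelial cells and a different amount of RNA per cell cannot be told apart.

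Both knock-in arrays lay above both wild-type arrays for 7 of the 10 genes: Pecam1, Cdh5, Vwf, Cldn5, Aqp1, Tek and Emcn. Both lay below for 0 genes, and the groups overlapped for Kdr, Flt1 and Egfl7. Over all genes the groups were apart in the higher direction for 22.5% and in the lower direction for 24.1%. Among the genes at least as bright as the dimmest member the higher share was 36.6%.

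**Figure D1:**
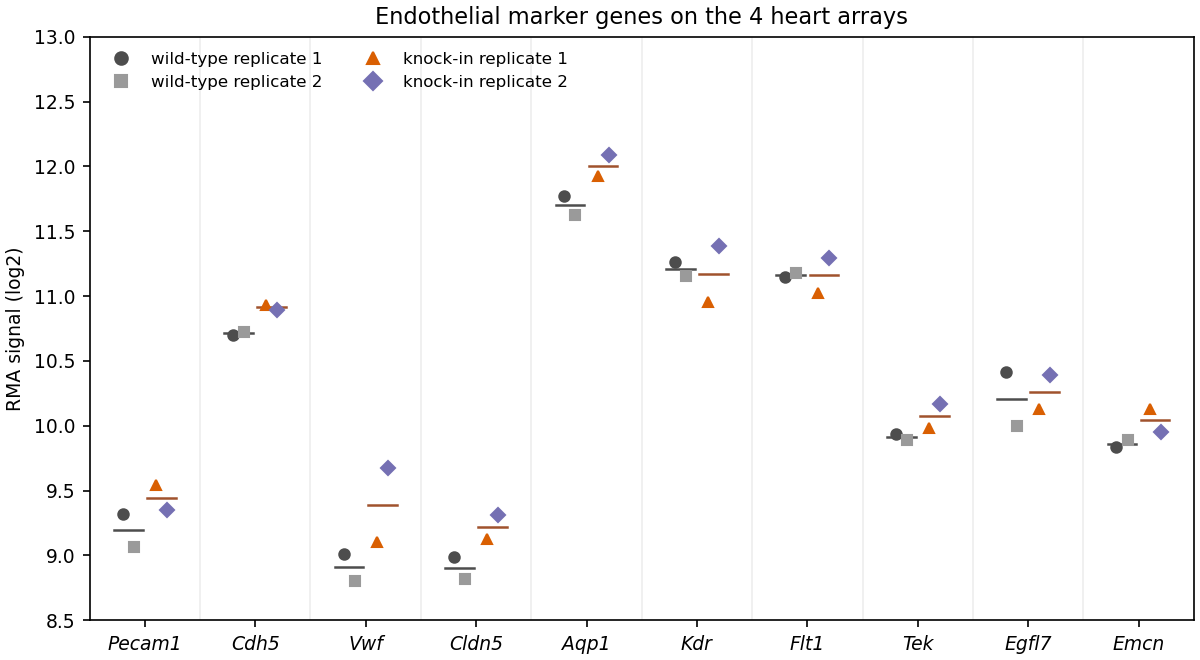
RMA signal (log2, vertical axis) of the representative probe set of each endothelial gene (horizontal axis) on each array, with a bar at each group's mean of 2 arrays. The knock-in symbols lie above both wild-type symbols for 7 genes, and they straddle or mix with them for Kdr, Flt1 and Egfl7.

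Facts of the whole series bear on these values. Array medians ran from 6.14 to 6.23 on the log2 scale and upper quartiles from 8.11 to 8.24. The median was highest on wild-type replicate 1 and lowest on knock-in replicate 2, and the upper quartile had the reverse order, so the arrays did not share 1 distribution as deposited. Knock-in replicate 2 also had the largest 3′ minus 5′ signal of the Gapdh controls, where RNA quality shows, at 0.76 against 0.54 to 0.62 on the other arrays. The targeted gene, Gsk3a, measured 11.16 and 11.08 in wild-type and 10.62 and 10.80 in knock-in hearts, a log2 difference of −0.42 that did not pass the test (limma adjusted p = 0.458). Its signal does not check the substitution itself. The tissue label held: the 12 cardiomyocyte markers had array medians between 14.47 and 14.62. Transcripts typical of hepatocytes were higher in the knock-in hearts, although 0 of the 14 markers passed the test. Their array medians were 6.17 and 5.66 on the wild-type arrays, 8.72 on knock-in replicate 1 and 7.06 on knock-in replicate 2.

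Cldn5 and Aqp1 were the 2 members with the smallest p, and their promoters are shown because both genes lay higher on each knock-in array. The 250 bases before the RefSeq start of each gene are printed 5′ to 3′ on the plus strand of GRCm38.p6, at chr16:18776597-18776846 for Cldn5 and chr6:55336049-55336298 for Aqp1. Capitals mark the letters GGAA, the core of the site bound by ETS transcription factors that act in endothelial genes, and GGGCGG, the GC box, on either strand, so that TTCC and CCGCCC are the same motifs read from the other strand.
Cldn5: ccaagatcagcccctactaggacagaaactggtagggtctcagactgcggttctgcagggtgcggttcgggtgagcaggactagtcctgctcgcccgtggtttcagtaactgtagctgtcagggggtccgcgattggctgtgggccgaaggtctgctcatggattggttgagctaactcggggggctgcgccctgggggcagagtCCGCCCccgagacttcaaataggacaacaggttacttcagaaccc
Aqp1: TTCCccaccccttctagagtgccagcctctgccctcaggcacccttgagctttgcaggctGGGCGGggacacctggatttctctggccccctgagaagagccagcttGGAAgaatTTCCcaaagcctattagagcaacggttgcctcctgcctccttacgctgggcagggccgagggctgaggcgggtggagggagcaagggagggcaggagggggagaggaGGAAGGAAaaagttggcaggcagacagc
The Aqp1 window held 5 matches to GGAA and the Cldn5 window 0, while each held 1 GC box. The promoter table held 9 windows of 7 members (Cldn5, Aqp1, Kdr, Flt1, Tek, Emcn and 3 starts of Egfl7), of which 8 held GGAA and 5 a GC box. Over all 32851 windows of this length in the table, 93.4% held GGAA and 32.7% a GC box. A match is a string of letters and not a measured binding site.

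The junction genes were higher in both knock-in arrays by their representative probe sets. Cldn5 measured 8.98 and 8.82 on wild-type replicates 1 and 2 and 9.13 and 9.31 on knock-in replicates 1 and 2. The groups did not overlap. The genotypes differed by 0.31 on the log2 scale (SE 0.12, 95% interval 0.02 to 0.61), which is 1.24-fold by RMA values, and the difference did not pass the test (limma unadjusted p = 0.0399, adjusted p = 0.459). Leaving out 1 array moved it between 0.22 and 0.41.

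Cdh5, the gene of the adherens junction cadherin, gave 2 opposed readings. Its brighter probe set measured 10.70 and 10.73 in wild-type and 10.93 and 10.89 in knock-in hearts, with SDs of 0.02 and 0.03 (n = 2 each) that were small against a difference of 0.20. Its dimmer probe set measured 7.20 and 7.14 in wild-type and 7.07 and 6.88 in knock-in hearts, a difference of −0.19. The groups were apart on both probe sets, in opposite directions, and each 95% interval spanned 0, from −0.05 to 0.45 and from −0.48 to 0.09. The mean of both probe sets differed by 0.0026 between genotypes. The direction for Cdh5 therefore depended on the probe set.

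Pecam1, whose product joins endothelial cells to each other and is also carried by platelets and leukocytes, measured 9.32 and 9.07 in wild-type and 9.54 and 9.35 in knock-in hearts. The lower knock-in value lay just above the higher wild-type value. Its difference was 0.25 (95% interval −0.07 to 0.58, limma adjusted p = 0.505), and without wild-type replicate 2 it was 0.13.

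The growth factor receptors did not share a direction. Kdr, the main signalling receptor for VEGF-A, measured 11.26 and 11.15 in wild-type, and the knock-in arrays lay on either side of these at 10.96 and 11.38. Its difference was −0.04, with a 95% interval from −0.42 to 0.34 (limma adjusted p = 0.934). The gap between the knock-in arrays, 0.43, was larger than the difference between the genotype means, which was 0.17 without knock-in replicate 1 and −0.25 without knock-in replicate 2.

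Flt1 encodes a receptor that binds VEGF tightly and also exists as a soluble form. On its brightest probe set the values were 11.14 and 11.18 in wild-type and 11.02 and 11.29 in knock-in hearts, a difference of −0.0030 with a 95% interval from −0.31 to 0.30. As with Kdr, the knock-in arrays bracketed the wild-type arrays. The other 3 Flt1 probe sets differed by −0.05 to −0.12, and the groups overlapped on all 4. The sign for Kdr and for the brightest Flt1 probe set turned to higher when the arrays were shifted to 1 median, at 0.02 and 0.06.

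Tek, the angiopoietin receptor gene, measured 9.94 and 9.89 in wild-type and 9.99 and 10.16 in knock-in hearts. The groups were apart by a narrow margin. Its difference was 0.16 (95% interval −0.11 to 0.44, limma adjusted p = 0.583), and 0.07 without knock-in replicate 2.

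**Figure D2:**
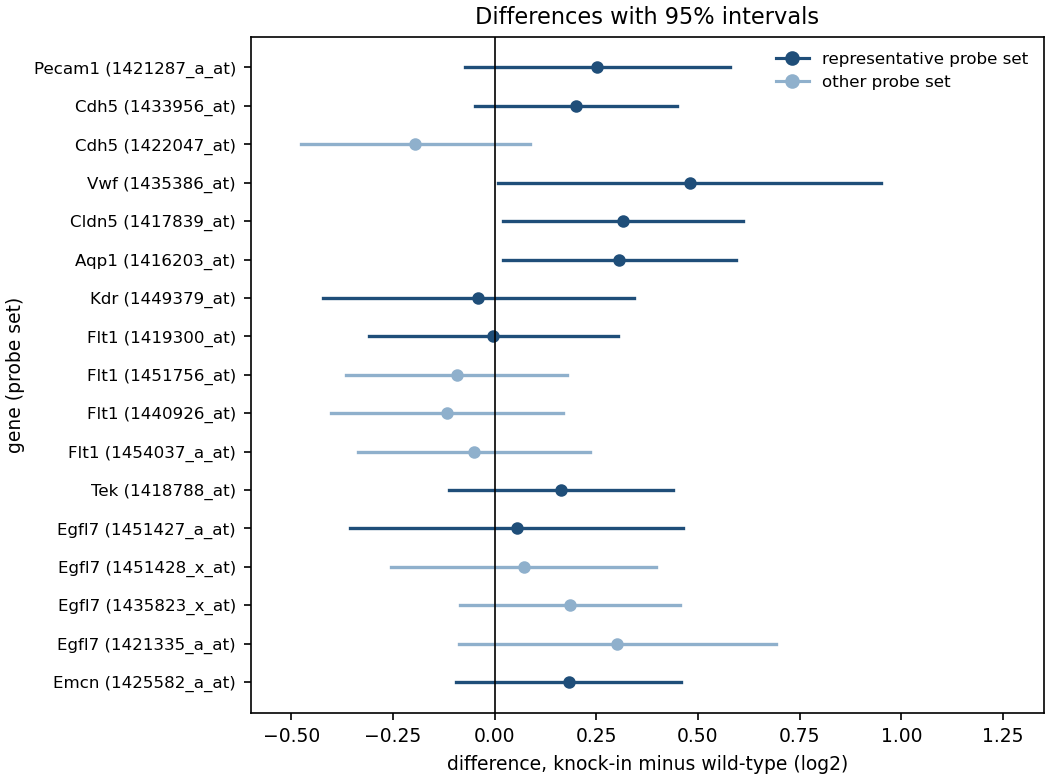
Log2 difference, knock-in minus wild-type (horizontal axis), with the limma 95% interval for each of the 17 endothelial probe sets (vertical axis). The intervals of Vwf, Cldn5 and Aqp1 lie above 0 before adjustment, both Cdh5 probe sets point in opposite directions, and the 4 Flt1 probe sets lie between −0.12 and −0.0030.

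Among secreted proteins Vwf had the largest difference of the 10 members and also the widest spread. It measured 9.01 and 8.80 in wild-type hearts, 9.10 on knock-in replicate 1 and 9.67 on knock-in replicate 2. Knock-in replicate 1 lay close to the wild-type arrays, and replicate 2 stood above the other 3. The genotypes differed by 0.48 (SE 0.20, 95% interval 0.0092 to 0.95), or 1.39-fold by RMA values (limma unadjusted p = 0.0468, adjusted p = 0.465). It was 0.20 without knock-in replicate 2 and 0.76 without knock-in replicate 1. Platelets also carry von Willebrand factor. Of 9 platelet and megakaryocyte markers measured, 3 were higher and 6 lower, their median difference was −0.11, 4 lay below the median of the whole table, and their array medians were 6.03 and 6.52 in wild-type and 6.25 and 6.24 in knock-in hearts. Without knock-in replicate 2 their median was −0.01, and single markers went both ways, from −0.43 for Gp9 to 0.33 for Ppbp. The part of platelet RNA in the Vwf values was not tested.

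Egfl7, which is active in forming vessels, was measured by 4 probe sets whose differences were all above 0 but unequal, at 0.05, 0.07, 0.18 and 0.30. On the brightest the values were 10.42 and 9.999 in wild-type and 10.13 and 10.39 in knock-in hearts. The wild-type arrays lay farther apart, by 0.42, than the genotype means, and the groups overlapped. On that probe set the difference was −0.16 without wild-type replicate 2 and −0.08 without knock-in replicate 2. Quantile normalization and cyclic loess also turned its sign, to −0.02 in each case. On the probe set with a difference of 0.18 the groups did not overlap, with wild-type values of 10.07 and 10.04 and knock-in values of 10.16 and 10.32.

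At the cell surface, the water channel gene Aqp1 measured 11.77 and 11.63 in wild-type and 11.92 and 12.09 in knock-in hearts. The groups did not overlap, and the knock-in arrays were 0.16 apart. The genotypes differed by 0.31 (SE 0.12, 95% interval 0.02 to 0.59), or 1.24-fold by RMA values (limma unadjusted p = 0.0391, adjusted p = 0.459). It lay between 0.23 and 0.39 with 1 array left out. Red cells also carry aquaporin-1. Of 6 red cell markers measured, 3 were higher, 3 lower and the median was −0.0017, and 5 lay below the median of the whole table. After quantile normalization 5 of the 6 were higher with a median of 0.09, and after cyclic loess all 6 with 0.11. The marker above the table's median was Alas2, the red cell haem synthesis gene, at 9.22 and 8.66 in wild-type and 9.25 and 9.48 in knock-in hearts, a difference of 0.42. The part of red cell RNA in the Aqp1 values was not tested.

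Emcn, the endomucin gene of capillaries, veins and endocardium, measured 9.83 and 9.89 in wild-type and 10.13 and 9.95 in knock-in hearts. Knock-in replicate 1 was the higher of its group here, unlike for Vwf, Cldn5 and Aqp1. The difference was 0.18 (95% interval −0.09 to 0.46, limma adjusted p = 0.551) and ran from 0.09 to 0.27 with 1 array left out.

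At the unadjusted level 3 of the 17 probe sets were higher in the knock-in hearts at a limma p under 0.05, those of Vwf, Cldn5 and Aqp1, and 0 were lower. Over all probe sets, dim ones included, the shares were 5.07% higher and 5.62% lower. No such share was taken among genes at least as bright as the dimmest member. Of those, 69.5% had a difference above 0, against 46.9% of all genes. The 3 did not hold under every processing. The count was 5 with arrays shifted to 1 median, 2 with array weights and 0 after quantile normalization or cyclic loess. With 1 array left out, the differences ran from 0.20 to 0.76 for Vwf, 0.22 to 0.41 for Cldn5 and 0.23 to 0.39 for Aqp1. After quantile normalization the median of the members was 0.12 instead of 0.19, and that of the genes at least as bright as the dimmest member was −0.0085 instead of 0.06. The groups were then apart, in the higher direction, for 4 of the 10 genes (Cdh5, Vwf, Cldn5 and Aqp1), against 20.9% of those bright genes.

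The arrays on which the members peaked were uneven. By representative probe set 6 of the 10 genes were highest on knock-in replicate 2, 3 on knock-in replicate 1 and 1, Egfl7, on wild-type replicate 1. Among genes at least as bright as the dimmest member, 52.5% were highest on knock-in replicate 2, so that 6 of 10 was near the share of bright genes. The lowest value lay on wild-type replicate 2 for 6 of the 10, against 31.1% of those bright genes. Wild-type replicate 1 lay above wild-type replicate 2 for 7 of the 10, against 51.7%. Measured against the wild-type mean, the median over the members was 0.21 on knock-in replicate 1 and 0.18 on knock-in replicate 2. Gene by gene, however, 7 of the 10 lay higher on knock-in replicate 2 than on replicate 1, against 77.0% of those bright genes. The mean over the members was 10.24 and 10.12 on the wild-type arrays, 10.29 on knock-in replicate 1 and 10.45 on replicate 2. Their median value was 10.18 on wild-type replicate 1, 9.94 on wild-type replicate 2, 10.13 on knock-in replicate 1 and 10.28 on knock-in replicate 2. By that median knock-in replicate 1 lay below wild-type replicate 1. The hepatocyte marker medians, as differences from the wild-type mean, were 3.03 on knock-in replicate 1 and 1.10 on replicate 2. The part of liver transcripts in the endothelial values was not tested.

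**Figure D3:**
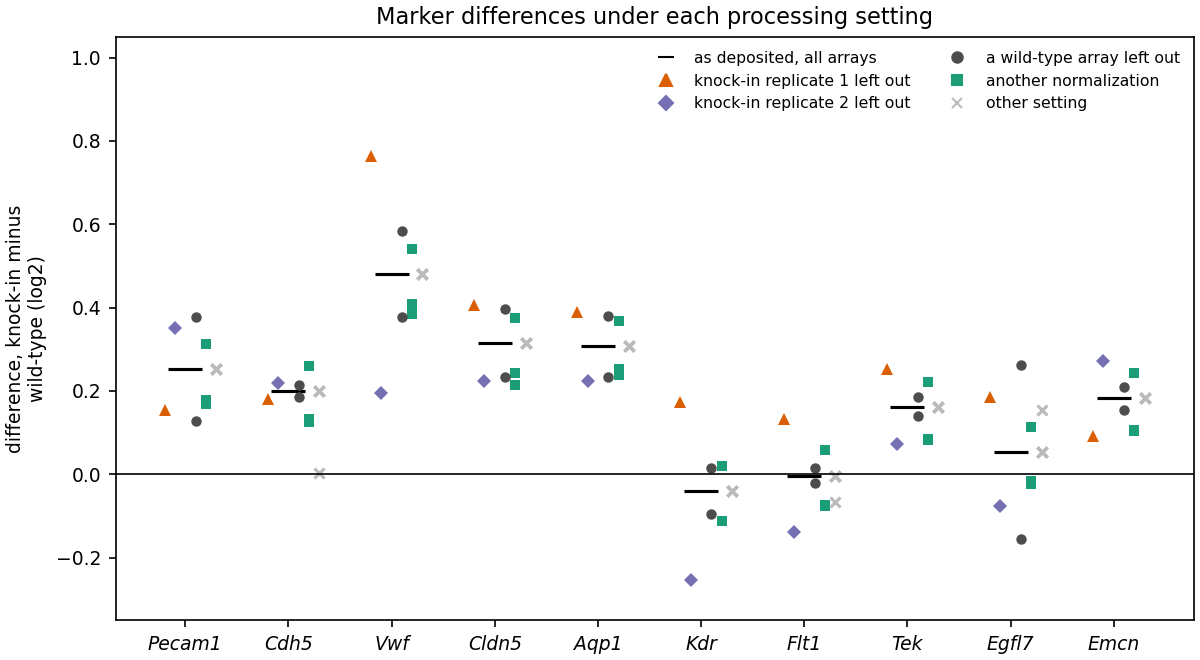
Log2 difference, knock-in minus wild-type (vertical axis), of each endothelial gene (horizontal axis) as deposited and under each alternative, with symbols by the kind of alternative. The symbols of Vwf run from 0.20 to 0.76, depending on which knock-in array is left out, while those of Kdr, Flt1 and Egfl7 lie on both sides of 0.

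The genes around these members were described by lists of pathway and cell type genes, each counted by representative probe set. In the 10 endothelial lists of the following paragraphs and the liver sinusoidal list, 0 genes passed the test, and no adjusted p was under 0.458. At an unadjusted limma p under 0.05, 5.45% of all genes were higher and 4.76% lower, and this share was not taken for bright genes alone. A difference above 0 was found for 46.9% of all genes and 65.0% of genes with a mean of at least 7. It was found for 69.5% of genes at least as bright as the dimmest member. The counts of higher genes below are read against these shares. Some genes stand in more than 1 list.

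Of 11 ligand genes of the VEGF, angiopoietin and related families, 8 were higher and 3 lower. Their median difference was 0.11, and 1 was higher and 0 lower at the unadjusted level. That gene was Vegfd, a growth factor of the VEGF family that acts on lymphatic vessels, at 6.62 and 6.51 in wild-type and 7.06 and 7.03 in knock-in hearts. Its difference was 0.48, against 0.30 and 0.63 on its other probe sets. All 3 were dim, with values from 5.69 to 7.06 beside a whole-table median of 6.18. Angpt1, the activating ligand of TIE2, differed by 0.24 on one probe set and −0.06 on the other, and Gdf2, a ligand of endothelial ALK1, by −0.21. Named for their role after their values were seen, Vegfa differed by 0.11, Vegfb by 0.06 and the TIE2 antagonist gene Angpt2 by 0.05, with −0.10 on its other probe set.

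Among 11 partner receptors and phosphatases of these pathways 8 were higher, 3 lower and the median was 0.12, while 2 were higher and 1 lower at the unadjusted level. The median was 0.04 after quantile normalization or cyclic loess, and 0.0098 without knock-in replicate 2, where the count of 2 became 0, as it did without wild-type replicate 2. Plxnd1, a semaphorin receptor of vessels, measured 9.07 and 8.94 in wild-type and 9.34 and 9.46 in knock-in hearts, a difference of 0.40. S1pr1, the sphingosine 1-phosphate receptor that stabilises endothelial junctions, went the other way, from 9.82 and 9.90 to 9.42 and 9.43. Its difference of −0.43 (95% interval −0.69 to −0.18) was larger than the spread of either group, and it did not pass over the whole table (limma adjusted p = 0.458).

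Junction genes other than the members numbered 15, of which 11 were higher and 4 lower. The median was 0.05, or 0.0079 without knock-in replicate 2, and 1 was higher at the unadjusted level. Junctional adhesion genes Jam2, Jam3 and F11r differed by 0.31, 0.26 and 0.25 on their representative probe sets. The other probe sets did not share this direction: 2 of Jam2 differed by 0.25 and 0.31 and 2 by −0.13 and −0.14, that of Jam3 by −0.18 and that of F11r by 0.03. Ctnnd1, which encodes the catenin that holds VE-cadherin at the membrane, differed by −0.09.

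Among these endothelial lists the transcription factors had the most genes past the unadjusted level, 6 of 20 higher and 0 lower, while 14 were higher in all and the median was 0.10. The 6 were Meox2, Sox7, Ets2, Ets1, Lmo2 and Hhex, with differences from 0.31 to 0.71. Sox7 differed by 0.40, against −0.13 on a dimmer probe set. Meox2, a homeobox gene of heart capillaries, was uneven within wild-type, at 7.54 and 8.38, against 8.61 and 8.73 in knock-in hearts, and its other probe set differed by 0.33 rather than 0.71. Ets1, of the ETS family whose core site is marked above, measured 9.75 and 10.09 in wild-type and 10.34 and 10.24 in knock-in hearts, a difference of 0.37, and its other 3 probe sets differed by 0.51, −0.04 and −0.25. Sox17, an arterial factor, differed by −0.18 on one probe set and 0.24 on the other. The count of 6 was 7 with arrays shifted to 1 median and 4 after quantile normalization or cyclic loess. The median of the list was 0.08 without wild-type replicate 1 and 0.13 without wild-type replicate 2. It was 0.22 without knock-in replicate 1 and 0.02 without knock-in replicate 2.

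A further list of 20 pan-endothelial markers, which shares no gene with the 10 members, had 15 higher, 5 lower and a median of 0.11, with 4 higher and 0 lower at the unadjusted level. This count was 0 after quantile normalization and 1 after cyclic loess, 0 with wild-type replicate 1 or knock-in replicate 2 left out, and 1 with either other array left out. The small GTPase gene Rhoj differed by 0.46, with uneven wild-type values of 8.94 and 9.51 (limma unadjusted p = 0.0508). She differed by 0.33, with 0.60 on its other, dim probe set, and the endothelial lectin gene Clec14a by 0.27. The lowest of the list was Ushbp1, at −0.11. Against the wild-type mean the list's median was 0.04 on knock-in replicate 1 and 0.21 on knock-in replicate 2, and after quantile normalization or cyclic loess it was 0.03. Of 15 genes of vascular tone and haemostasis 11 were higher, with a median of 0.13 and 1 past the unadjusted level. This was the endothelin receptor gene Ednrb at 0.40, with 0.23 and 0.13 on its other probe sets, where the groups overlapped. The median of the 15 was 0.06 after quantile normalization, with 8 of 15 higher, and 0.06 after cyclic loess. It was 0.03 without knock-in replicate 2 and 0.20 without knock-in replicate 1. Plat, which encodes tissue plasminogen activator, differed by 0.30, against −0.18 on its other, dim probe set. The lowest gene with a mean of at least 6 was Tfpi, at −0.09. Its other probe sets differed by −0.15, −0.20 and 0.11.

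Vessel-bed lists had medians near 0. The 12 heart capillary genes, of fatty acid handling and of other roles, divided into 6 higher and 6 lower. At the unadjusted level 1 was higher and 2 were lower. The median of all 12 was 0.01, which became −0.07 after quantile normalization or cyclic loess. It was also below 0 with either knock-in array or wild-type replicate 1 left out. Timp4, which encodes a metalloproteinase inhibitor and not a fatty acid handling protein, was lowest there. It measured 9.38 and 9.25 in wild-type and 8.91 and 8.71 in knock-in hearts, with differences of −0.50 and −0.43 on its 2 probe sets. Arterial markers had 8 of 13 higher and a median of 0.05, venous and lymphatic markers 7 of 12 and 0.06, and endocardial markers 4 of 6 and 0.02, with 2, 1 and 1 higher at the unadjusted level. On knock-in replicate 1 the arterial and endocardial medians lay below the wild-type mean, at −0.07 and −0.09, and on replicate 2 above it, at 0.20 and 0.29. The venous and lymphatic median was 0.11 on replicate 1 and −0.0040 on replicate 2. The arterial genes Fbln5 and Gja4 differed by 0.39 and −0.22, with −0.18 on the other Fbln5 probe set. The lymphatic gene Mmrn1 differed by 0.42, with −0.04 on its other probe set, and the endocardial gene Nfatc1 by 0.40, with its other probe sets from −0.15 to 0.01. By representative probe set the lowest were Nr2f2 at −0.14 in the venous and lymphatic list and Cytl1 at −0.12 in the endocardial list. The other Nr2f2 probe sets went both ways, from −0.31 to 0.23.

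**Figure D4:**
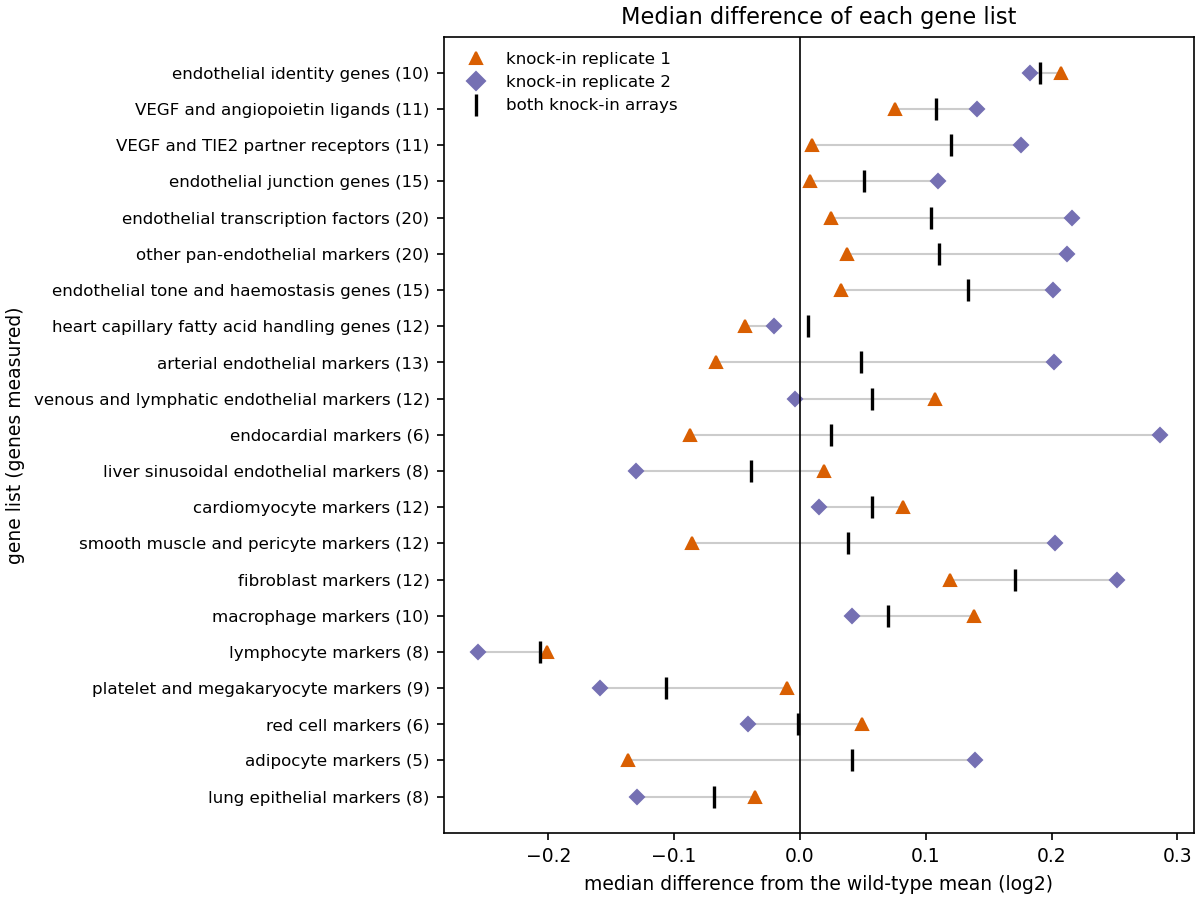
Median log2 difference from the wild-type mean (horizontal axis) of each gene list (vertical axis, with the number of genes measured), for knock-in replicate 1, replicate 2 and both. The endothelial identity genes lie at 0.21 on replicate 1 and 0.18 on replicate 2 by their median, although 7 of the 10 are higher on replicate 2. Hepatocyte markers, at 3.03 and 1.10, are outside the range and not drawn.

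Markers of other cells were measured beside the endothelial genes, and their part in the endothelial values was not tested. Fibroblast markers were 11 of 12 higher with a median of 0.17, and 3 were higher and 0 lower at the unadjusted level. After quantile normalization or cyclic loess 11 of the 12 were still higher, with medians of 0.11 and 0.10, and that count of 3 was 0. Smooth muscle and pericyte markers were 7 of 12 higher with a median of 0.04, cardiomyocyte markers 9 of 12 with 0.06 and macrophage markers 7 of 10 with 0.07. After quantile normalization the macrophage median was −0.0020 with 5 of 10 higher, and without knock-in replicate 1 the cardiomyocyte median was 0.02. The smooth muscle and pericyte median was −0.04 after quantile normalization, −0.03 after cyclic loess and −0.09 with knock-in replicate 2 left out. Lymphocyte markers were 7 of 8 lower with a median of −0.21, and 3 of the 8 lay below the median of the whole table. Lung epithelial markers were 7 of 8 lower with −0.07, and 6 of the 8 lay below the median of the whole table. With arrays shifted to 1 median or after cyclic loess, 4 of the 8 lung markers were higher, with a median of −0.008 in each case. Adipocyte markers were 3 of 5 higher with a median of 0.04, which was −0.14 with knock-in replicate 2 left out and −0.08 with wild-type replicate 2 left out. Their array median was 6.89 on knock-in replicate 2 against 5.13 to 5.30 on the others. Of the 5, 3 lay below the median of the whole table, and Plin1, Cfd and Adrb3 were not measured. Car3 of this list measured 6.38 and 6.07 in wild-type and 7.80 and 8.22 in knock-in hearts, a difference of 1.79 (limma adjusted p = 0.153). Its other probe sets differed by 0.26, −0.0040 and 0.04. All 14 hepatocyte markers measured were higher, with a median of 1.95, and 13 were higher at the unadjusted level, but 0 passed the test. Markers of liver sinusoidal endothelium were 4 higher and 4 lower of 8, with 2 higher and 1 lower at the unadjusted level. Their median was −0.04, and its sign turned with arrays shifted to 1 median and after cyclic loess. Of the 8, 6 lay below the median of the whole table.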

How the data were processed

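The submitters' processing notes name RMA in Affymetrix Expression Console, with versions and filters not given in the sources used here. The deposited values are log2 summaries by the authors, 1 per probe set and array, and the labels state that wild-type and knock-in arrays formed 1 normalization batch. They also say that the wild-type scans serve further samples, not analysed here, under another normalization. Of 45101 probe sets, 64 controls were left out. The platform annotation supplied symbols. It lists 1 symbol for 34945 of the tested probe sets, several for 932 and none for 9160, and 18032 of 18193 genes matched a GRCm38.p6 gene table by gene ID. Only probe sets with 1 symbol were named.

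The genotype effect was estimated by limma (version 3.58.1, under R 4.3.3) through lmFit and eBayes. The test was two-sided, had no covariate, and used 2 residual and 4.54 prior degrees of freedom. P-values were Benjamini-Hochberg adjusted over all 45037 probe sets, with a threshold of 0.05. The fit was tested on simulated data. Precision is limited by how few arrays there are, and a typical difference had a standard error of 0.12 (median over probe sets). The members and lists were chosen with earlier results of these data known. All 10 members are named. Of each other list at most 4 genes with a mean of at least 6 were to be named: the highest and lowest difference and the 2 smallest p. Ets1, Lmo2, Hhex, Vegfa, Vegfb and Angpt2 were added after their values were seen. The comparison with genes as bright as the members was also added then.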

Additional observations from a re-analysis of the deposited data

How the results depend on the processing

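No member probe set passed in any of 14 alternatives fitted by probe set, nor did a member gene when each gene's probe sets were averaged. Leaving out 1 array changed the 3 calls over the whole table to between 0 and 2. They became 8 with an intensity trend and robust prior, 11 with arrays shifted to 1 median, 1 with a mean of at least 7, and 5 at an adjusted p under 0.10. Without probe sets ending in _s_at, _x_at or _a_at, 5 of the 7 members left were higher. The count of higher members was otherwise 7 to 10 of 10, and their median lay between 0.11 and 0.25. The count was 10 with arrays shifted to 1 median, where 82.9% of genes at least as bright as the dimmest member were higher. It was 7 after quantile normalization and after cyclic loess, against 47.4% and 47.5% of those bright genes. Single differences that changed sign, none of them called, were those of Kdr with arrays shifted to 1 median (0.020), and with 1 array left out (−0.25 to 0.17); Flt1 (0.057, and −0.14 to 0.13); and Egfl7 after quantile normalization (−0.016), cyclic loess (−0.024) or with 1 array left out (−0.16 to 0.26). The cause was not tested. The replicate numbers are shared between groups, and deviations of same-numbered arrays correlated at 0.08 over probe sets, which with 2 pairs does not establish pairing. With the replicate number as a block 4 probe sets were called over the whole table and 0 members, the median of the members was 0.19, and 0 of the 17 member probe sets had an unadjusted p under 0.05, against 3 without the block.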
